A study of Mus musculus with 12 samples.

Results

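The transcripts of the mitochondrial genome were described in B cells from Peyer's patches (PP), the lymphoid follicles of the small intestine, of mice after stroke or sham surgery. The genes were taken by name: every row of the expression table whose gene symbol begins with mt- was included, which gave 13 of 36175 rows. All 13 code for proteins, and the 22 transfer RNA and 2 ribosomal RNA genes annotated on the same chromosome were not analysed here. The group was chosen because several of its genes had been seen higher after stroke in these samples, so the differences between stroke and sham in the 13 genes are a description and are not a test of anything.

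The mice were wild-type male C57BL/6JHsd animals of 10 to 12 weeks, and the tissue was taken 18 h after surgery. Stroke was induced by occluding the middle cerebral artery with a filament for 1 h (n = 6), and sham controls went through surgery without occlusion of that artery (n = 6). B cells were isolated with magnetic beads, and each library came from 1 mouse. The preparations were bulk samples, so a smaller number of cells of one kind and less RNA per cell cannot be told apart.

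Mitochondrial DNA is a small circle carried in many copies per cell. Both of its strands are transcribed into long precursor RNAs, and the transfer RNAs that lie between most of the protein genes are cut out, which frees the messenger RNAs. The proteins they encode are core subunits of the respiratory chain and of ATP synthase, and each works beside many subunits made from nuclear genes. B cells draw on this machinery when they are activated and when they secrete antibody.

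The 13 genes encode 7 subunits of complex I (Nd1 to Nd6 and Nd4l), the complex that as a whole passes electrons from NADH to ubiquinone. They also encode 1 subunit of complex III (Cytb, cytochrome b), 3 of complex IV (Co1 to Co3, the catalytic core of cytochrome c oxidase) and 2 of complex V (Atp6 and Atp8, parts of the proton channel of ATP synthase). On GRCm38 they lie, from one end of the linear map to the other, at chrM:2751-3707 (mt-Nd1), chrM:3914-4951 (mt-Nd2), chrM:5328-6872 (mt-Co1), chrM:7013-7696 (mt-Co2), chrM:7766-7969 (mt-Atp8), chrM:7927-8607 (mt-Atp6), chrM:8607-9390 (mt-Co3), chrM:9459-9806 (mt-Nd3), chrM:9877-10173 (mt-Nd4l), chrM:10167-11544 (mt-Nd4), chrM:11742-13565 (mt-Nd5), chrM:13552-14070 (mt-Nd6) and chrM:14145-15288 (mt-Cytb). Each is a single exon without introns, and mt-Nd6 is the one protein gene on the minus strand.

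Some of these genes share bases, so reads from the shared part fit both. mt-Atp8 (204 bases) and mt-Atp6 (681 bases) overlap by 43 bases on the same strand. The shared run is printed from the GENCODE M21 transcripts, with the start codon of mt-Atp6 and the stop codon of mt-Atp8 in capitals.
mt-Atp8 and mt-Atp6, shared bases: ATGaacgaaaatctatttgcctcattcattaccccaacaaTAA
mt-Nd4l and mt-Nd4 share 7 bases, and the ends of mt-Nd5 and mt-Nd6, which lie on opposite strands, overlap by 14 bases. Whether the counting used strand was not given in the sources used here, so reads from mt-Nd6 and from the RNA that runs opposite to it cannot be told apart. The genes also differ in how they end, which matters for the copies described next. The last bases of mt-Co2 hold a complete stop codon, while mt-Co3, mt-Nd4 and mt-Cytb end on a single T, the first base of a stop codon that is completed when the RNA is polyadenylated. In these lines the stop codon, or the part of it that is encoded, is in capitals.
mt-Co2, bases 655 to 684: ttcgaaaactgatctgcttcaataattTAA
mt-Co3, bases 755 to 784: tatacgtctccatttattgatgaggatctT
mt-Nd4, bases 1349 to 1378: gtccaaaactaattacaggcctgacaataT
mt-Cytb, bases 1115 to 1144: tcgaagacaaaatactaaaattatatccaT

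The nuclear genome of the mouse carries a stretch of inserted mitochondrial DNA on chromosome 1, and the table has rows for pseudogenes annotated on it. There were 7 transcripts there with more than 99% identity to a mitochondrial gene, all on the minus strand of chr1:24611535-24616197 (GRCm38). They are Gm29216 (a copy of part of mt-Co1), Gm28661 (mt-Co2), Gm10925 (mt-Atp6), Gm28437 (mt-Co3), Gm28438 (mt-Nd3), Gm10222 (mt-Nd4l) and Gm28439 (part of mt-Nd4). The ends of 2 of the annotated copy transcripts show how close they are to the genes above: each stops before the bases in capitals. The bases that follow them on chromosome 1 were not examined.
Gm28661, bases 655 to 681: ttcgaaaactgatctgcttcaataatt
Gm28437, bases 757 to 783: tacgtctccatttattgatgaggatct
The annotated transcript of Gm28438 ends before the last 3 bases of mt-Nd3, the stop codon. It differed from the gene by T3C, counted from the first base of the gene. The base concerned is in capitals in these windows.
mt-Nd3: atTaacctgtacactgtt
Gm28438: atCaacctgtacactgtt
Of all runs of 31 bases in mt-Co2, 100% were also present in a nuclear transcript. The share was 99.9% for mt-Co3, 99.5% for mt-Atp6, 98.9% for mt-Nd4l, 98.1% for mt-Nd3, 63.9% for mt-Co1 and 62.8% for mt-Nd4. It was 16.8% for mt-Nd5, 13.5% for mt-Nd2, 7.47% for mt-Atp8, 7.36% for mt-Nd6, 6.55% for mt-Cytb and 0% for mt-Nd1. Values of the genes with a high share are therefore uncertain, since reads had to be divided between near-identical rows.

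The deposited values are TPM per gene (kallisto's abundance estimate, relative to gene length and library size), normalized further between samples by the authors, so they are already per length and the totals of the columns differ. They ran from 559570 in sham control 6 to 1404340 in sham control 1, with 1386990 in sham control 2. The number of reads is unknown, and no counting error can be given. All 10 B cell marker genes were at least 1 in every mouse, with summed values of 2772 to 3520 in sham and 1900 to 3203 in stroke. Markers of intestinal epithelium summed to 1725 and 1623 in sham controls 1 and 2 and to 32.7 to 857 in the other mice. By group the sum was 740 ± 740 in sham and 280 ± 320 in stroke (mean ± SD). The 5 epithelial markers tested all had a negative log2 difference (stroke minus sham), with a median of -1.64 and a smallest limma adjusted p of 0.791. Of the 10 epithelial markers 5 were at least 1 in every mouse. Of the 8 neutrophil markers 0 were at least 1 in every mouse, and 3 of them (S100a8, Ly6g and Elane) were under 1 in all 12. The 8 neutrophil markers summed to 2.31 to 5.64. The part of these differences in the mitochondrial values was not tested.

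Mitochondrial mRNAs were among the most abundant transcripts of PP B cells, with ranks from 6 to 67 by mean value. The level of the 13 genes together was 31926 ± 7750 in sham and 41312 ± 11822 in stroke (mean ± SD of normalized TPM, n = 6 each). It ranged from 26895 to 47298 in sham with a median of 29231, and from 31941 to 60655 in stroke with a median of 34883. The groups overlapped, with sham control 5 above 4 of the stroke mice. As a share of the column total, in which a factor common to a library cancels, the 13 genes made up 2.27, 2.13, 2.97, 3.10, 5.11 and 4.83% in sham controls 1 to 6. The share was 3.39, 3.74, 5.04, 4.37, 7.49 and 3.94% in stroke mice 1 to 6. The mean share was 3.40% ± 1.28 in sham and 4.66% ± 1.5 in stroke, and again the groups overlapped. The mean log2 value of the 13 had an r of -0.67 with the summed B cell markers and of -0.61 with the immunoglobulin share of the total over the 12 mice. Stroke mouse 5, the highest for 11 of the 13 genes, had the lowest B cell sum (1900) and the lowest immunoglobulin share (2.14%, against 3.98 to 5.35% in the other 11). Of the 10 B cell markers limma called 2 lower after stroke at an unadjusted p under 0.05, Cr2 and Fcer2a, both receptors of mature B cells, beside 1.69% of all genes. The differences of the 10 were 7 negative and 3 positive, with a median of -0.15. With each mouse at the same total 0 of the 10 were called lower, where calls of all genes also fell, from 213 to 69. Of the 10 differences 5 were then negative and 5 positive, with a median of -0.02. The part of B cell content in the mitochondrial values was not tested.

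**Figure D1:**
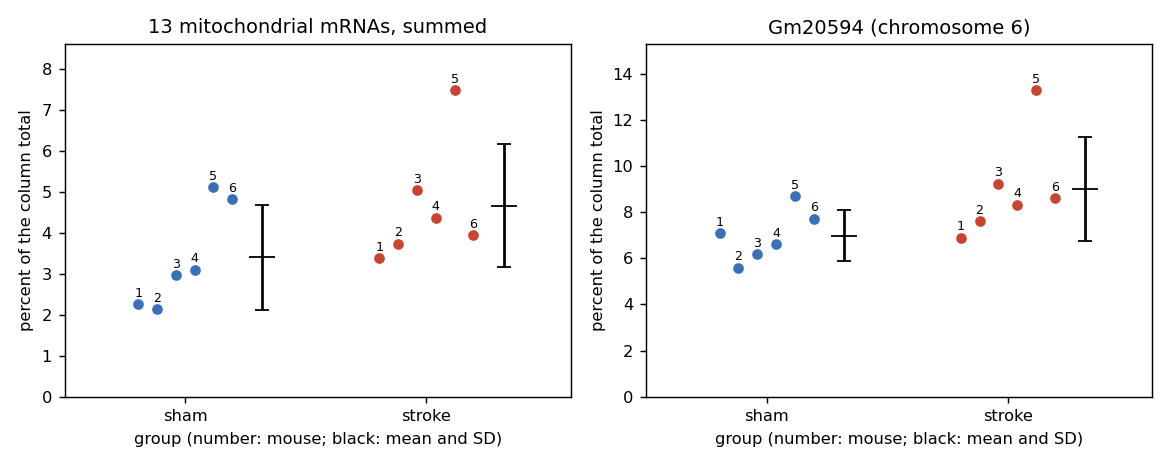
Share of each mouse's column total (percent) taken by the 13 mitochondrial mRNAs (left) and by Gm20594 (right), one point per mouse with its number, and the mean and SD of each group of 6 in black. Stroke mouse 5 is highest in both panels (7.49% and 13.3%), and the groups overlap.

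The levels per length followed a wide order, from 9355 for mt-Atp8 to 1133 for mt-Nd2 as the mean of the 12 mice, a difference of 8.26-fold. mt-Atp8 was the most abundant of the 13 in 12 of 12 mice and ranked 6 among all genes. Next came mt-Atp6 (4382), mt-Co1 (3661), mt-Co2 (2551), mt-Nd4l (2475), mt-Cytb (2412), mt-Co3 (2358), mt-Nd1 (2298), mt-Nd6 (2191), mt-Nd5 (1490), mt-Nd4 (1171) and mt-Nd3 (1143). Some steps in this order held in every mouse: mt-Atp8 above mt-Atp6, mt-Co1 above mt-Co2, mt-Nd6 above mt-Nd5 and mt-Nd5 above mt-Nd4, each in 12 of 12. Other neighbours changed places from mouse to mouse. mt-Co2 was above mt-Nd4l in 6 of 12, mt-Co3 above mt-Nd1 in 4 of 12 and mt-Nd3 above mt-Nd2 in 3 of 12. These counts pool the groups: in stroke, mt-Nd1 was above mt-Co3 and mt-Nd2 above mt-Nd3 in 6 of 6 mice, while in sham the order varied. mt-Co2 was above mt-Nd4l in 1 of 6 sham controls and in 5 of 6 stroke mice. mt-Atp8, mt-Nd4l and mt-Nd3 are the shortest of the genes (204, 297 and 348 bases), and a value per length depends strongly on the length assumed for so short a transcript.

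In complex I, mt-Nd1, the first protein gene after the ribosomal RNAs, had values of 1305, 1167, 1607, 1675, 3007 and 1742 in the sham group, given here and below in the order of mouse 1 to 6, and 2171, 2036, 3515, 2338, 4611 and 2406 in the stroke group. Stroke mice 3 and 5 were above every sham control, and sham control 5 was above the remaining stroke mice. The difference was 0.70 (SE 0.25) on the log2 scale. mt-Nd5, one of the proton-pumping subunits, had 674, 619, 1063, 1141, 1951 and 1331 in sham and 1455, 1363, 2129, 1616, 2840 and 1701 in stroke, a difference of 0.77 (SE 0.27). Here too sham controls 1 and 2 were lowest and sham control 5 overlapped with stroke.

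The other subunits of complex I spanned the range between these genes and no increase at all. mt-Nd6 ran from 1081 to 2641 in sham (median 1676) and from 2018 to 4205 in stroke (median 2227), a difference of 0.60 (SE 0.25). mt-Nd4 ran from 522 to 1811 (median 972) and from 1097 to 1996 (median 1187), a difference of 0.56 (SE 0.28). mt-Nd4l, its partner on the same transcript, ran from 1091 to 3865 (median 1936) and from 2152 to 4267 (median 2553), a difference of 0.55 (SE 0.30). In both, sham controls 1 and 2 were the lowest of all mice. mt-Nd2 differed by 0.37 (SE 0.23), between 787 and 1659 in sham and between 930 and 1912 in stroke. mt-Nd3 was the exception in sign: it had 2501, 2091, 848, 980, 1227 and 438 in sham and 1001, 885, 1335, 720, 1037 and 653 in stroke, a difference of -0.34 (SE 0.36). Sham controls 1 and 2 were the highest of all mice for this gene, while they were lowest for the rest of complex I apart from mt-Nd2, where sham control 6 lay between them.

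mt-Cytb, the mitochondrial subunit of complex III, had values between 1210 and 3718 in sham (median 1928) and between 2216 and 4089 in stroke (median 2473), a difference of 0.54 (SE 0.25). Within complex IV the genes parted. mt-Co1, which holds the site of oxygen reduction, had 2042, 1924, 2847, 2990, 4997 and 2953 in sham and 3716, 3561, 4563, 3734, 6525 and 4078 in stroke, a difference of 0.60 (SE 0.22). Apart from sham control 5, every sham control was below every stroke mouse. mt-Co2, which takes electrons from cytochrome c, had 1200, 843, 1621, 1914, 3373 and 2296 in sham and 2456, 2582, 3196, 2845, 5823 and 2459 in stroke, a difference of 0.85 (SE 0.31). The same single sham control overlapped with stroke. mt-Co3 had 3689, 3566, 1749, 1951, 2703 and 1012 in sham and 2091, 1952, 3300, 1865, 2516 and 1903 in stroke, a difference of -0.01 (SE 0.29), with sham controls at both ends of the range.

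For complex V, mt-Atp8 had 10245, 10126, 6988, 7271, 11455 and 5913 in sham and 8405, 7391, 14034, 8446, 14325 and 7659 in stroke, a difference of 0.20 (SE 0.22). mt-Atp6 had 5277, 4545, 3036, 3182, 4891 and 2568 in sham and 3978, 3545, 6409, 3922, 6508 and 4717 in stroke, a difference of 0.32 (SE 0.22). The spread within each group covered most of the range of the other group for both genes. By complex, the summed values were 10044 ± 3168 and 13759 ± 4122 for complex I, 2020 ± 908 and 2803 ± 727 for complex III, 7279 ± 1884 and 9861 ± 2689 for complex IV, and 12583 ± 3319 and 14890 ± 4489 for complex V, in sham and stroke respectively.

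**Figure D2:**
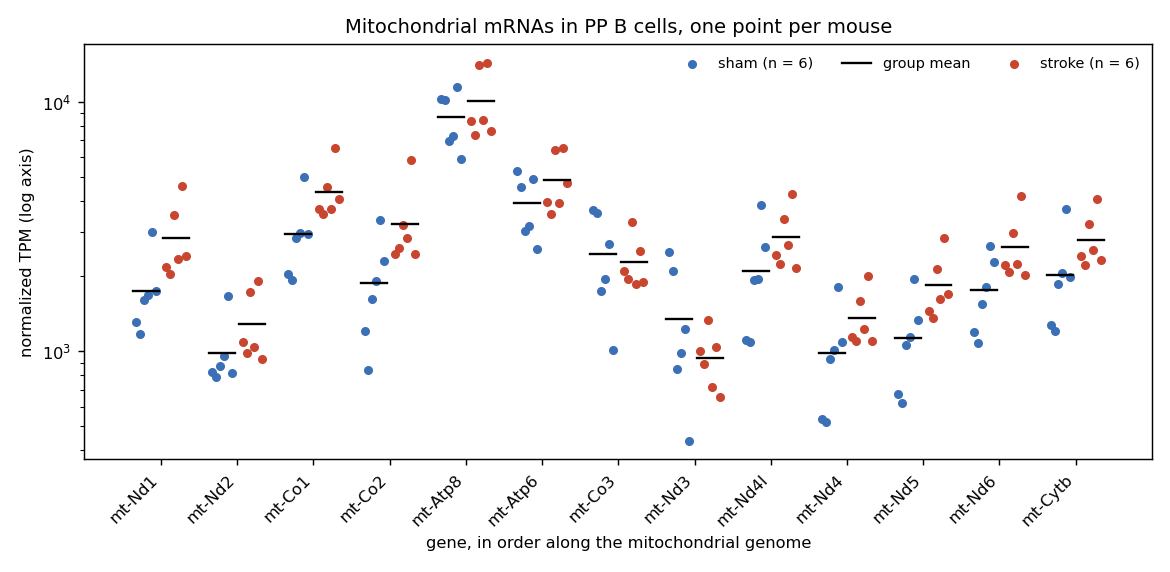
Normalized TPM (log axis) of each of the 13 genes in order along the mitochondrial genome, with one point per mouse (blue, sham; red, stroke; within a group, mice 1 to 6 from left to right) and the group mean as a black line. The groups overlap for every gene, and sham controls 1 and 2 lie high for mt-Atp8 to mt-Nd3 and low for the other genes.

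Set side by side, 11 of the 13 genes had a positive and 2 a negative difference, with a median of 0.55 on the log2 scale against 0.01 for all 12590 genes tested, of which 51.4% were positive. At an unadjusted p under 0.05, a loose threshold with no minimum fold change, limma called 5 of the 13 higher after stroke (mt-Nd5, mt-Nd6, mt-Nd1, mt-Co2 and mt-Co1) beside 4.42% of all genes, and 0 lower beside 1.69% of all genes. Since the genes were picked on this same comparison, nothing is read from that count. After Benjamini-Hochberg adjustment over all genes the limma p-values of the 13 lay between 0.748 and 0.998, and 0 of 12590 genes passed 0.05 while 770 had an unadjusted p under 0.05. That 0 changed with the filter and the mice: the smallest limma adjusted p of all genes was 0.468 here. It was 0.041 with genes at least 1 in 6 mice, and 0.0133 without sham control 1. The smallest of the 13 was 0.793 and 0.955 in those 2 fits. In 0 of the 13 was every stroke mouse above every sham control, which held for 0.349% of all genes, and in 0 was every stroke mouse below, which held for 0.0874%.

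The count changed with the sham controls included. Leaving out sham control 5, the highest sham control for 10 of the 13 genes, gave 9 genes called higher. Of all genes 549 were called higher in that fit, against 557 with all mice. Leaving out sham controls 1 and 2 together left 1 gene, mt-Atp6, with a difference of 0.50, beside 449 of all genes called higher. It made all 13 differences positive. The differences of those called above were then 0.43 for mt-Nd5, 0.32 for mt-Nd6, 0.49 for mt-Nd1, 0.47 for mt-Co2 and 0.35 for mt-Co1, while mt-Co3 and mt-Nd3 were 0.35 and 0.16. The difference in the sum of the 13 was 0.36 on the log2 scale with these 2 controls and 0.34 without them.

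**Figure D3:**
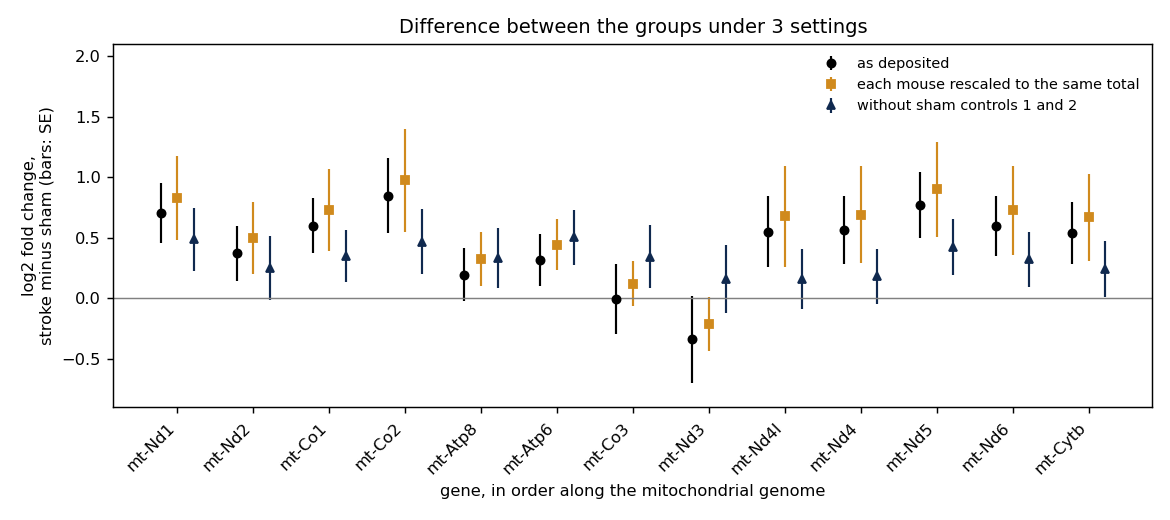
Log2 fold change (stroke minus sham) of each gene with its standard error, for the values as deposited (black), with each mouse rescaled to the same total (orange), and without sham controls 1 and 2 (dark blue). Without these 2 controls mt-Co3 and mt-Nd3 move from -0.01 and -0.34 to 0.35 and 0.16, mt-Atp8 and mt-Atp6 also move up, and the other 9 genes move down.

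Rescaling each mouse to the same total moved the median of all genes to 0.13, and the 13 genes with it. mt-Co2 then differed by 0.97, mt-Nd5 by 0.90, mt-Co3 by 0.12 and mt-Nd3 by -0.21. mt-Co3 thus had no stable sign between scalings, and it was below the median of all genes under both.

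In the composition of mitochondrial mRNA, sham controls 1 and 2 stood apart from the other 10 mice. This pattern was noticed in the values and was not tested. The genes mt-Atp8, mt-Atp6, mt-Co3 and mt-Nd3, which follow one another from position 7766 to 9806, together made up 68.1 and 68.7% of the sum of the 13 in these 2 mice. The share was 46.9, 46.3, 42.9 and 36.7% in sham controls 3 to 6 and between 40.2 and 48.8% in the 6 stroke mice. The stroke mice therefore lay within the range of sham controls 3 to 6 for this share, apart from stroke mouse 3 at the top. Each of the 4 genes had its 2 highest shares, and each of the other 9 its 2 lowest, in sham controls 1 and 2.

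The contrast was strongest toward the end of that segment. mt-Nd3 made up 7.85 and 7.07% of the sum in sham controls 1 and 2, 1.62 to 3.39% in sham controls 3 to 6 and 1.71 to 2.90% in stroke. mt-Co3 made up 11.6 and 12.1% in the same 2 mice, and 3.75 to 6.75% in the other 10. Between mt-Nd3 and mt-Nd4, which lie on the same strand with mt-Nd4l between them, the ratio of levels was 4.69 and 4.0 in sham controls 1 and 2. It was 0.403 to 0.967 in sham controls 3 to 6 and 0.520 to 0.878 in stroke. The ratio of mt-Co3 to mt-Co1 was 1.81 and 1.85 in these 2 controls, 0.343 to 0.652 in the other sham controls and 0.386 to 0.723 in stroke. Pairs that share one mature transcript behaved otherwise: the ratio of mt-Nd4l to mt-Nd4 stayed between 1.92 and 2.40 in all 12 mice, and that of mt-Atp8 to mt-Atp6 between 1.62 and 2.34.

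**Figure D4:**
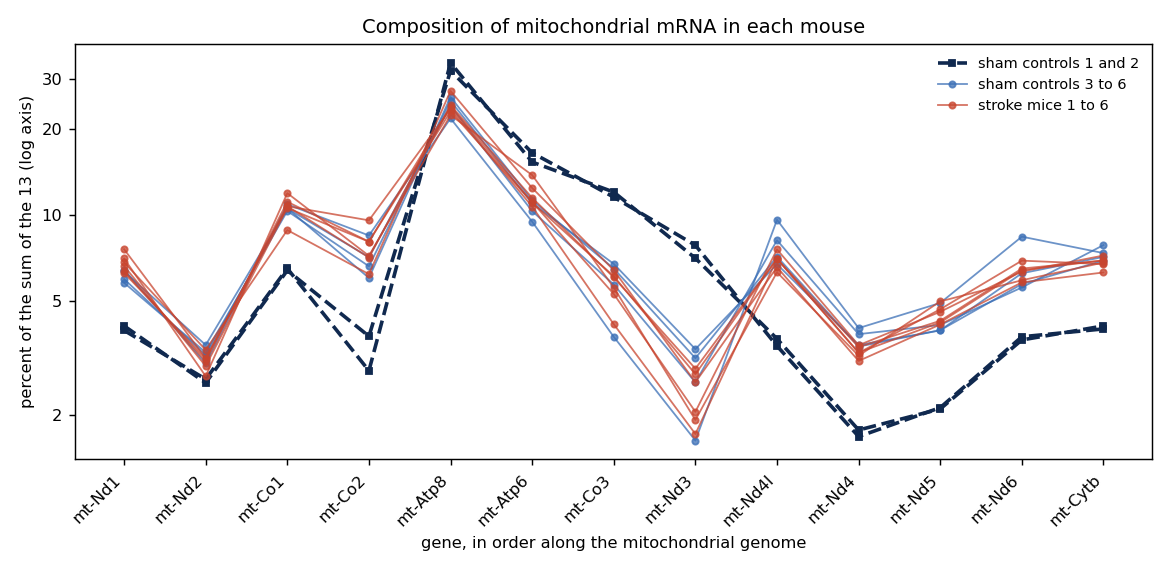
Percent of the sum of the 13 genes (log axis) taken by each gene, in genome order, with one line per mouse (dashed dark blue, sham controls 1 and 2; light blue, sham controls 3 to 6; red, stroke mice). The dashed lines lie above all others from mt-Atp8 to mt-Nd3, where the summed share is 68.1 and 68.7%, and below them elsewhere.

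The same division appeared in how the genes varied together. Over the 12 mice, the 36 pairs among the other 9 genes had a median Pearson r of 0.96 (0.82 to 0.99) on the log2 scale, and mt-Nd6 on the opposite strand was among them. mt-Co3 and mt-Nd3 had an r of 0.94 with each other and a median of -0.23 with the other 9 genes. mt-Atp8 and mt-Atp6 had an r of 0.94 with each other and a median of 0.37 with the other 9. Without sham controls 1 and 2 (10 mice) the latter medians were 0.54 and 0.89, so the low values came with those mice. All points share their libraries and the authors' scaling, and these values are given as a description.

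Other features of the libraries moved with the composition. The summed share of mt-Co3 and mt-Nd3 had an r of 0.89 with the column total over 12 mice. With the summed markers of other cells, r was 0.80 for macrophages and dendritic cells, 0.79 for plasma cells, 0.75 for epithelium, 0.72 for Paneth cells, -0.07 for neutrophils, -0.31 for erythroid cells, -0.51 for endothelium and -0.58 for T cells. Sham controls 1 and 2 had the highest column totals and the highest epithelial and plasma cell sums, and the plasma cell markers summed to 1509 and 1347 there against 325 to 1113 in the other 10. At the other end, sham control 6 had the lowest share of mt-Co3 and mt-Nd3 (5.37%), the lowest column total and the lowest plasma cell sum. The part of these features in the composition was not tested.

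The values of mt-Co2 depended on how reads had been divided with its nuclear copy. Gm28661 had 558, 821, 799, 669, 1023 and 250 in sham and 468, 355, 1115, 399, 324 and 526 in stroke. It took 28.9% ± 13 of the sum of both rows in sham, from 9.81 to 49.4%, and 14.9% ± 6.87 in stroke, from 5.27 to 25.9%. The groups overlapped, and the share was highest in sham control 2, where the value of mt-Co2 was lowest. With the copy added, mt-Co2 was 2558 ± 983 in sham and 3756 ± 1284 in stroke, and its difference went from 0.85 to 0.57. mt-Co2 has no run of 31 bases of its own, and its 3 last bases are the only ones by which it extends beyond the annotated Gm28661 transcript.

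The remaining copies varied from mouse to mouse. Gm28437, the copy of mt-Co3, was highest in sham controls 1 and 2 (943 and 368) and was 1.99 to 300 in the other sham controls and 18.4 to 177 in stroke. Adding it moved the difference of mt-Co3 from -0.01 to -0.10. Gm10925, the copy of mt-Atp6, was 3.75 to 226 in sham and 35.5 to 85.7 in stroke, at most 4.74% of the sum of both rows. Gm29216, the partial copy of mt-Co1, was very uneven, with 326 and 314 in sham controls 4 and 6, 421 and 646 in stroke mice 1 and 2, and at most 33.9 in the other 8. Gm28438 was at most 1.88, Gm10222 was close to 0, and Gm28439 was listed at 0 in all 12.

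**Figure D5:**
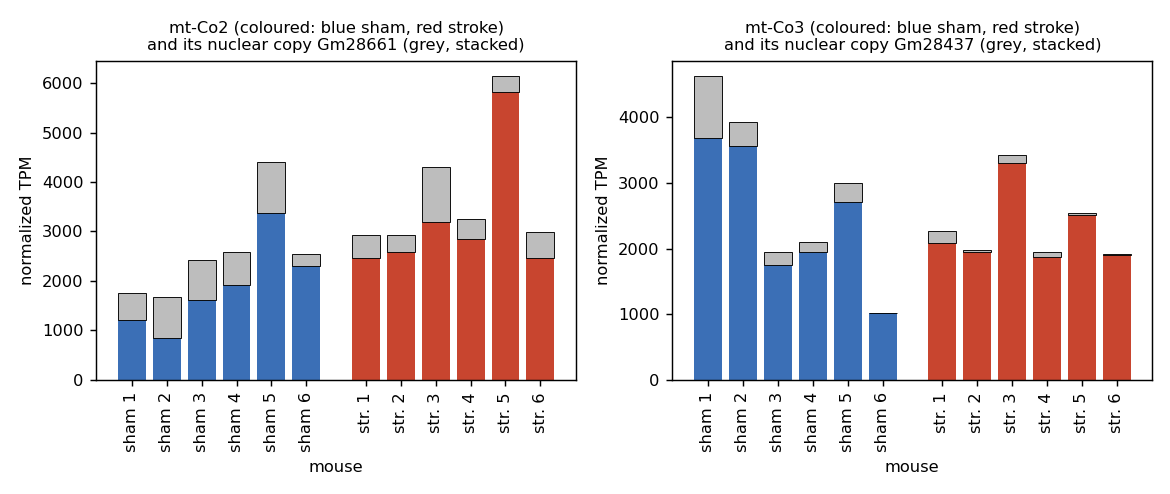
Normalized TPM of mt-Co2 (left) and mt-Co3 (right) in each mouse (blue bars, sham; red bars, stroke) with the value of the nuclear copy stacked on top in grey. Gm28661 takes up to 49.4% of the left-hand sum (sham control 2), and Gm28437 up to 20.4% of the right-hand sum (sham control 1).

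The most abundant row of the whole table also carries mitochondrial sequence. Gm20594, annotated as protein coding at chr6:79817916-79818364 (GRCm38, plus strand), aligned over 429 bases with 90.4% identity to mt-Rnr2, the large ribosomal RNA of the mitochondrion (chrM:1094-2675). The longest run that both share is 65 bases, bases 1009 to 1073 of mt-Rnr2, printed here because reads from it fit both.
mt-Rnr2 and Gm20594, shared bases: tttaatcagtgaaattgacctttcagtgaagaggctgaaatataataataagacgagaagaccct
Gm20594 had 43161 to 99357 in sham and 65132 to 107657 in stroke. Its share of the column total was 6.98% ± 1.12 in sham and 8.99% ± 2.25 in stroke, with stroke mouse 5 highest at 13.3%. How much of this value came from mitochondrial ribosomal RNA was not tested. The row is not one of the 13, and its sequence was examined after its level had been seen.

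Nuclear genes that maintain and express mitochondrial DNA were listed beside these values. Of 10 genes for its transcription, such as Tfam and Polrmt, 0 were called in either direction, beside 4.42% higher and 1.69% lower over all genes, and their median difference was 0.01. Tfam, which packages the DNA and starts its transcription, was 78.3 ± 18.1 in sham and 62.7 ± 9.26 in stroke (limma, adjusted p = 0.793). Polrmt, the RNA polymerase, was 23.2 ± 3.81 and 23.2 ± 4.95 (limma, adjusted p = 0.989). Of 7 genes for replication 0 were called, with a median of 0.05.

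Among 27 genes for processing and turnover of mitochondrial RNA, limma called 1 higher and 1 lower at an unadjusted p under 0.05, with a median of -0.11. In a list of this size these counts are close to the 4.42% and 1.69% of all genes. The gene called higher was Prorp, the nuclease that cuts at the start of transfer RNAs (4.79 ± 1.31 in sham and 6.37 ± 0.952 in stroke, limma adjusted p = 0.791). The gene called lower was Fastkd2, an RNA-binding protein of mitochondria (13 ± 2.18 and 9.90 ± 1.09, limma adjusted p = 0.748). Of 17 mitochondrial aminoacyl-tRNA synthetases, Hars2 was called higher (27.9 ± 5.25 and 37.7 ± 7.43, limma adjusted p = 0.753) and Fars2 lower (31 ± 1.32 and 24 ± 3.78, limma adjusted p = 0.716), with a median of -0.07 over the list. A single call in each direction among 17 genes is again near the shares of all genes. Every stroke mouse was below every sham control for Fars2, as for 0.0874% of all genes.

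The nuclear subunits that join the mitochondrial ones in the same complexes had negative median differences in the values as deposited. The median was -0.12 over 37 nuclear subunits of complex I, -0.24 over 9 of complex III, -0.28 over 11 of complex IV and -0.23 over 15 of complex V. It was -0.19 over 4 of complex II, which has no mitochondrial subunit. Among these subunits 1 was called, near the 1.69% of all genes called lower: Cyc1, cytochrome c1 of complex III, at 45.9 ± 12.3 in sham and 33.6 ± 3.98 in stroke (limma, adjusted p = 0.791). The sign was negative for 32 of 37, 9 of 9, 11 of 11 and 14 of 15 genes of complexes I, III, IV and V, where 51.4% of all genes had a positive sign. With each mouse at the same total, where the median of all genes was 0.13, these medians were 0.01, -0.11, -0.16 and -0.10, and that of complex II was -0.06. The sign was then negative for 18 of 37, 9 of 9, 10 of 11 and 11 of 15 genes of complexes I, III, IV and V, and for 3 of 4 of complex II under both scalings.

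These lists followed the composition as well. The summed level of the nuclear complex IV subunits was 2103 and 2113 in sham controls 1 and 2, 560 in sham control 6 and 853 to 1541 in the other 9 mice. Its r over the 12 mice was 0.85 with the share of mt-Co3 and mt-Nd3 and -0.51 with the log2 sum of the other 9 mitochondrial genes. For the nuclear complex I subunits the same values were 0.84 and -0.50. They are descriptions over the same 12 libraries.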

How the data were processed

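RNA from PP B cells of 12 mice was sequenced, 6 after sham surgery and 6 after stroke, and the groups were taken from the sample labels. The authors trimmed reads with Trimmomatic 0.39 and quantified transcripts with kallisto 0.48.0 (GRCm38, Ensembl release 102). The deposited signal values are these TPM per gene described as normalized. Their column totals are unequal, so a further scaling between samples was applied; its method was not given in the sources used here (the submitters' processing notes name sleuth 0.30.0), and the depth behind a value is unknown. kallisto divides reads between near-identical transcripts by an iterative estimate, which affects genes with nuclear copies.

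Genes at or above 1 in every mouse (12590) were fitted with limma 3.58.1 (R 4.3.3) on log2(value + 0.5) without a block, where the study used the Wald test of sleuth. Fold changes are on this scale, p-values were adjusted by Benjamini-Hochberg over all genes tested, and genes were called at an unadjusted p under 0.05. On simulated data for stroke versus sham with 12590 genes, 200 genes were given a log2 change of 1.5, of which 180 were recovered with 14 false calls after Benjamini-Hochberg adjustment. With no gene changed, 650 genes passed the unadjusted threshold and 0 the adjusted one. The limma p-values weigh a difference between groups against the spread between these mice. SDs are over mice, and sums and shares over genes have no test.

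Sequences came from GENCODE M21 transcripts. Copies were transcripts with identity above 99% that hold at least 25% of a gene's runs of 31 bases, kallisto's default word length. The word length used was not given in the sources used here, and no genome sequence was used, so copies outside annotated transcripts were not analysed here. Named were all 13 genes, from each nuclear list the called gene of smallest p, higher and lower, annotated copies at least 1 in every mouse, and the 5 genes with the highest and the 5 with the lowest r with the mean log2 value of the 13. Tfam, Polrmt, Lars2, Cr2, Fcer2a, Gm20594, the rarer copies and the neutrophil genes were named after their values were seen. The members, lists and rules were chosen with earlier results of these data known. Alternatives were other pseudocounts, filters and scalings, a replicate block and leaving out each mouse. Chosen after seeing the data were a total without the 10 most abundant genes, adding each nuclear copy, and leaving out sham controls 1 and 2 together.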

Additional observations from a re-analysis of the deposited data

Results flagged for a closer look

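Of 64 groups of 6 mice examined for a mouse far from the rest, 3 held one whose gap to its nearest neighbour exceeded Dixon's critical share of the group's range, and chance alone gives about 1 in 20 groups. mt-Nd2 was 1659 in sham control 5, with the next sham control at 954 (gap 0.741 of the range). mt-Co2 was 5823 in stroke mouse 5, with the next stroke mouse at 3196 (0.695). Gm28437, the nuclear copy of mt-Co3, was 1.99 in sham control 6, with the next sham control at 155 (0.707). These 3 mice were also at an end of other measures: sham control 5 had the highest value in its group for 10 of the 13 genes, stroke mouse 5 for 11, and sham control 6 the lowest column total.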

How the results depend on the processing

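Over all genes, limma called 557 higher and 213 lower at an unadjusted p under 0.05. Without a filter on low values the counts were 1418 and 350, with equal totals 348 and 69, and with equal totals apart from mitochondrial and immunoglobulin genes 365 and 62. Quantile normalization gave 327 lower, and leaving out sham controls 1 and 2 together 141 lower. Leaving out 1 mouse at a time gave 395 to 936 higher and 146 to 1162 lower, the largest counts both without sham control 6. The number of mitochondrial genes called higher was 5, ranged from 4 to 9 with 1 mouse left out (9 without sham control 5), and was 1 without sham controls 1 and 2. Of all genes 549 were called higher without sham control 5, and 449 without sham controls 1 and 2. mt-Co3, at -0.01, was 0.12 with equal totals, 0.14 with equal totals apart from mitochondrial and immunoglobulin genes, 0.088 after quantile normalization, 0.061 with totals without the 10 most abundant genes, 0.35 without sham controls 1 and 2, and -0.23 to 0.14 with 1 mouse left out. mt-Nd3 turned from -0.34 to 0.16 without sham controls 1 and 2. The cause was not tested, and the remaining 11 genes kept a positive difference under all alternatives run. The difference in the sum of the 13, 0.36, stayed between 0.24 and 0.50. A fit with a block for replicate number called 9 mitochondrial genes and 770 of all genes higher, and 404 of all genes lower. Same-numbered mice had a mean r of 0.22 in their deviations (-0.04 for other pairs), above 0.1 in 4 of 6 pairs, and 2 of 6 sham controls correlated best with their own number, so the numbers were not taken as pairs. Unknown depth leaves counting error out of every value.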

Other observations

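The genes outside the mitochondrial genome whose log2 values followed the mean log2 value of the 13 most closely over the 12 mice were Usp49 (Pearson r 0.96), Olfr907 (0.91), BC055324 (0.88), U2af1 (0.88) and Apobec1 (0.88). Those that ran most strongly against it were Ifnar1 (-0.96), Ppp1r10 (-0.91), Lrba (-0.91), Anxa7 (-0.91) and Kynu (-0.88). They are the ends of 12590 genes ranked over 12 libraries that share the authors' scaling, and the ranking is a description. U2af1, a splicing factor, was 101.7 ± 10.2 in sham and 115.1 ± 12.1 in stroke. Ifnar1, a chain of the type I interferon receptor, was 38 ± 3.34 in sham and 34.5 ± 2.94 in stroke.

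Among the mitochondrial aminoacyl-tRNA synthetases, the summed level was 553 to 5351 in sham and 1232 to 3086 in stroke. Lars2, singled out after its values were seen, made up most of it, with 2757 ± 1736 in sham and 1788 ± 755 in stroke. The groups overlapped, and the log2 difference of Lars2 was -0.27 (SE 0.61).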
